A study of Rattus norvegicus with 18 samples.

Results

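The transcripts described here are the 4 glucose transporters Slc5a2, Slc5a1, Slc2a2 and Slc2a1, which encode SGLT2, SGLT1, GLUT2 and GLUT1. They were picked by gene identifier from a kidney count table of 55335 identifiers (ENSMUSG00000030781, ENSMUSG00000011034, ENSMUSG00000027690 and ENSMUSG00000028645, in that order), and all 4 were among the 19233 genes that passed the filter on low counts. The table holds 18 libraries of polyadenylated kidney RNA, 1 per animal, from animals that the labels call Rattus norvegicus. The 6 control animals (Ctrl) had ordinary feed and a gavage of the solvent. The 6 animals of the diabetic nephropathy model (DN) had a high-fat diet and an injection of STZ. The remaining 6 (Treat) had the same model and received TSK, known from the labels by this abbreviation alone, orally at 500 mg/kg per day during 4 weeks. Strain, age and sex are not in the labels, which therefore do not say whether the groups were matched for them. A division of the controls seen in the counts, described below, limits every comparison with Ctrl. Kidney RNA was taken whole, so that fewer cells of a type and less RNA per cell cannot be told apart.

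The kidney filters glucose freely and takes it back in the proximal tubule in 2 membrane steps. At the luminal side, SGLT2 couples glucose entry to sodium in the early, convoluted part of the tubule and recovers most of the filtered load, and SGLT1, a transporter of higher affinity, recovers the remainder in the late, straight part. At the opposite, basolateral side glucose leaves by facilitated diffusion, through GLUT2 in the early part and through GLUT1 in the late part and in other nephron segments. SGLT2 is the target of the gliflozin class of glucose-lowering drugs.

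Slc5a2 and Slc2a2 are the 2 members that were lower in treated than in model kidneys, and Slc5a1 and Slc2a1 are the 2 that were not. The 250 bases before the start of each gene are shown so that the pairs can be compared. The labels say rat, but the counted identifiers and the builds in the processing notes are those of mouse, so these may not be the sequences of the animals. They are from the rat genome (RefSeq, build GRCr8), at chr1:192277371-192277620 for Slc5a2, chr2:113540120-113540369 for Slc2a2 and chr5:138002272-138002521 for Slc2a1, all on the plus strand, and at chr14:81843085-81843334 on the minus strand for Slc5a1. Capitals mark the CG dinucleotides, which read the same on both strands and do not overlap.

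Slc5a2: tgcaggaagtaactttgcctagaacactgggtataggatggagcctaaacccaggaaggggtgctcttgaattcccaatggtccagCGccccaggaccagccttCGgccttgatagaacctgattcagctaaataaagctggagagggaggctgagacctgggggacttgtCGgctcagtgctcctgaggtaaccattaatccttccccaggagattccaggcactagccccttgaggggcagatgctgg

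Slc2a2: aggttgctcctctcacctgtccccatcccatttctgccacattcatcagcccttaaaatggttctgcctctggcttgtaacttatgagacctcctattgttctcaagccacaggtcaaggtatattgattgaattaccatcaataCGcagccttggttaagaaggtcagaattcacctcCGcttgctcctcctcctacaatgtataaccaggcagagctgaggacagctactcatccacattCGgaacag

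Slc5a1: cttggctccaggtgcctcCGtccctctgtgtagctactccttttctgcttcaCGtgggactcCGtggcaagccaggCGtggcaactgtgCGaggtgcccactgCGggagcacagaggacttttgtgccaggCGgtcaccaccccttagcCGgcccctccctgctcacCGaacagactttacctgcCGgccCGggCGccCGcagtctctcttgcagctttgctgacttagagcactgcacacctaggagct

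Slc2a1: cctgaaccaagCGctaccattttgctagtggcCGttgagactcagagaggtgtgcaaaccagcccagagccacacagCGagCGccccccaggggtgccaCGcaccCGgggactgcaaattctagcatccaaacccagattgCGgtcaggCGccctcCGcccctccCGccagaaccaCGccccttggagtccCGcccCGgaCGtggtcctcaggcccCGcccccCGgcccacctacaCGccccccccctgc

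The Slc5a2 and Slc2a2 promoters held 3 CG dinucleotides each, with a G and C content of 54.8% and 47.2%. Of 33469 rat promoters of this length, whose median was 5 CG, 37.4% held at most 3 and 71.4% at least 3, so this number is a common one. The Slc5a1 promoter held 13 CG (62.8% G and C), a number that 29.4% of promoters reached, and the Slc2a1 promoter held 17 (68.4% G and C), which 21.9% reached. Among the 4 members, the 2 that were lower in Treat than in DN thus had fewer CG than the 2 that were not. The same 2 were lower in Treat than in Ctrl (adjusted p under 0.05). In DN against Ctrl the 2 members lower at this threshold were instead Slc5a2 with 3 CG and Slc2a1 with 17. These letters describe 4 genes, they were looked at after the counts had been seen, and no binding or methylation was measured.

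Total counts per library were 22040987 to 35275498, and each member had between 680 and 10346 counts in a library. Levels are counts per 1000000 counts of a library (CPM), with library totals scaled by TMM factors. All 18 libraries were fitted together with edgeR's quasi-likelihood test, and a gene was called at a Benjamini-Hochberg adjusted p under 0.05 over all 19233 genes. Counting error was small: it averaged 1.06% to 3.56% of the level by member and group, against a spread between animals (coefficient of variation) of 8.41% to 24.3%. The labels do not say whether reads were counted on transcripts of the animals' own species. Levels are therefore compared between groups, and no gene is said to have more transcripts than another. Mean CPM is used only to set level cutoffs and to place genes in a figure, and ratios of members are compared between groups.

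One division of the controls bears on every comparison with Ctrl. The identifier ENSMUSG00000086503 had 38313 to 52784 counts in control libraries 1, 2, 3, 5 and 6, but 23 counts in control library 4 and 12 to 41 counts in every DN and treated library. Control library 4 is therefore the control that resembles the DN and treated libraries in this respect, and its level is given beside each member's comparison with Ctrl. The files do not name this identifier, and what divides the controls, a difference in sex included, was not tested. For 5 of the 6 controls any difference between Ctrl and the other groups cannot be told apart from this division, and the DN against Ctrl and Treat against Ctrl values below are to be read with that limit. All DN and treated libraries lie on the same side of this division, so it does not run between them. Treated library 1 had the highest or lowest level of its group for several members, as given below.

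Slc5a2, the transporter of the early proximal tubule, stepped down from Ctrl to DN and again from DN to Treat, with no overlap between any of the groups. The control libraries had 270.2, 298.5 and 359.9 CPM (lowest, median and highest). The DN libraries had 143.0, 166.9 and 233.8 CPM, and the treated libraries 60.2, 83.9 and 99.4 CPM. The highest DN library, library 5, was still below the lowest control, and the highest treated library, library 1, was below the lowest DN library. Of all genes tested, 7.89% had every DN library below every control, 1.03% every treated below every DN library, and 13.2% every treated library below every control. Group means over 6 libraries were 306.9 ± 30.6 CPM for Ctrl, 173.6 ± 32.8 for DN and 81.8 ± 15.7 for Treat (± SD), so that DN stood at 56.6% of Ctrl and Treat at 47.1% of DN and 26.7% of Ctrl.

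**Figure D1:**
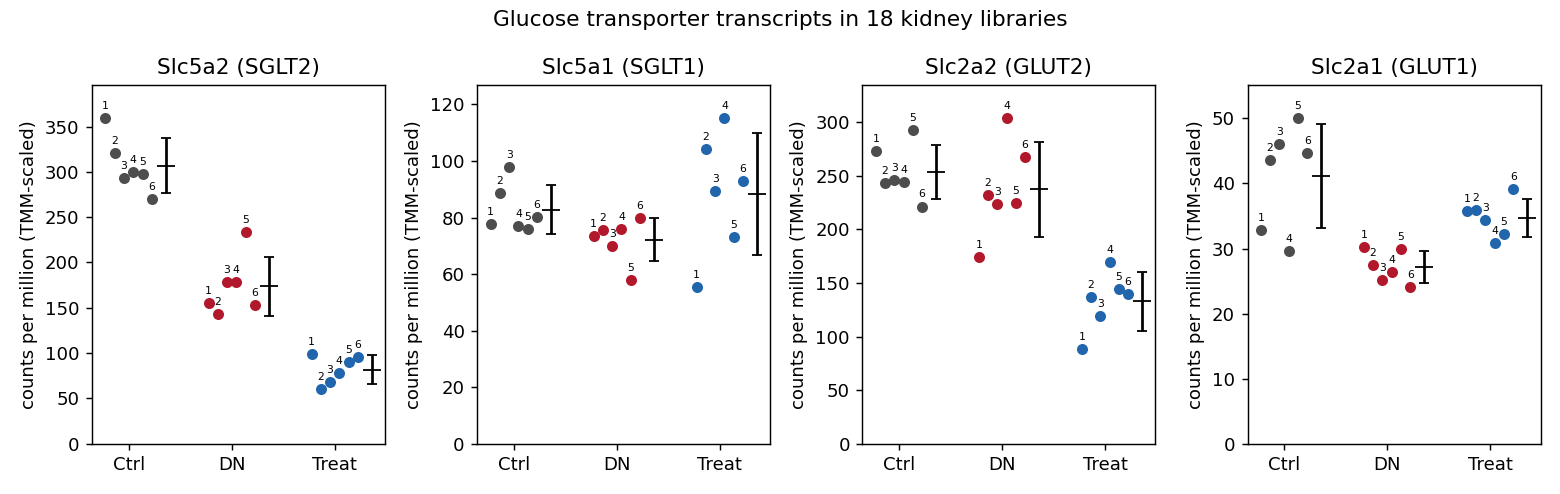
Level of each transporter in CPM (TMM-scaled, linear axes from 0) in the 18 libraries, with replicate numbers beside the points and bars for the mean ± SD of each group of 6. Slc5a2 falls into 3 groups that do not overlap, the treated libraries of Slc2a2 lie below all others, Slc5a1 overlaps throughout, and Slc2a1 is lowest in DN.

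In the comparison of DN with Ctrl, Slc5a2 fell by 0.82 on the log2 scale (SE 0.13, 95% interval -1.10 to -0.55, adjusted p = 0.000145), which is 1.77-fold. In Treat against DN it fell by 1.09 (SE 0.13, 95% interval -1.36 to -0.81, adjusted p = 0.000455), which is 2.12-fold. In Treat against Ctrl it fell by 1.91 (SE 0.14, adjusted p = 1.69e-08), which is 3.75-fold. The treatment fall was called under each of 28 other settings, 18 of which only left out 1 library. Its adjusted p ran from 1.53e-11 to 0.0102 and its log2 fold change from -1.15 to -0.94. By p-value it ranked 6 among the 19233 genes of Treat against DN. By size of fall it ranked 169 among all of them, and 8 among the 1579 genes with a mean of at least 100 CPM. The fall from Ctrl to DN ranked 1335 among all genes and 81 among those 1579, and the fall from Ctrl to Treat 302 and 26.

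Control library 4 had 299.6 CPM of Slc5a2, inside the range of the other controls (270.2 to 359.9 CPM) and above every DN library. With the division of the controls as a covariate, control library 4 is the sole reference. The fall from Ctrl to DN was then 0.79 on the log2 scale with an SE of 0.24, and it lost its call (log2 fold change -0.79, adjusted p = 0.0600), while that from Ctrl to Treat stayed called (log2 fold change -1.87, adjusted p = 8.62e-05). The fit without the covariate gave -0.82 and -1.91. A single reference library gives no spread among controls on its side of the division, so the part of the division in these falls was not tested.

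Slc5a1, the sodium-coupled transporter of the late proximal tubule, did not follow Slc5a2. Its control libraries had 76.0, 78.8 and 97.9 CPM, its DN libraries 57.9, 74.5 and 80.0 CPM, and its treated libraries 55.5, 91.1 and 115.4 CPM (lowest, median and highest). The groups overlapped in every comparison. Treated libraries were the most scattered, with a coefficient of variation of 24.3% against 10.5% in Ctrl and 10.6% in DN, and they held both the lowest value of all 18 libraries (library 1) and the highest (library 4).

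No comparison called Slc5a1. Its means were 82.8 ± 8.67 CPM for Ctrl, 72.1 ± 7.68 for DN and 88.4 ± 21.5 for Treat (± SD, 6 libraries each). The log2 fold change was -0.20 in DN against Ctrl (95% interval -0.48 to 0.08, adjusted p = 0.272), 0.29 in Treat against DN (0.01 to 0.58, adjusted p = 0.290) and 0.09 in Treat against Ctrl (-0.19 to 0.38, adjusted p = 0.597). Without treated library 1 the Treat against DN value was 0.40 (adjusted p = 0.0610), and without both that library and control library 4 it was 0.41 and called (adjusted p = 0.0438). Control library 4 had 76.9 CPM, within the range of the other controls.

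**Figure D2:**
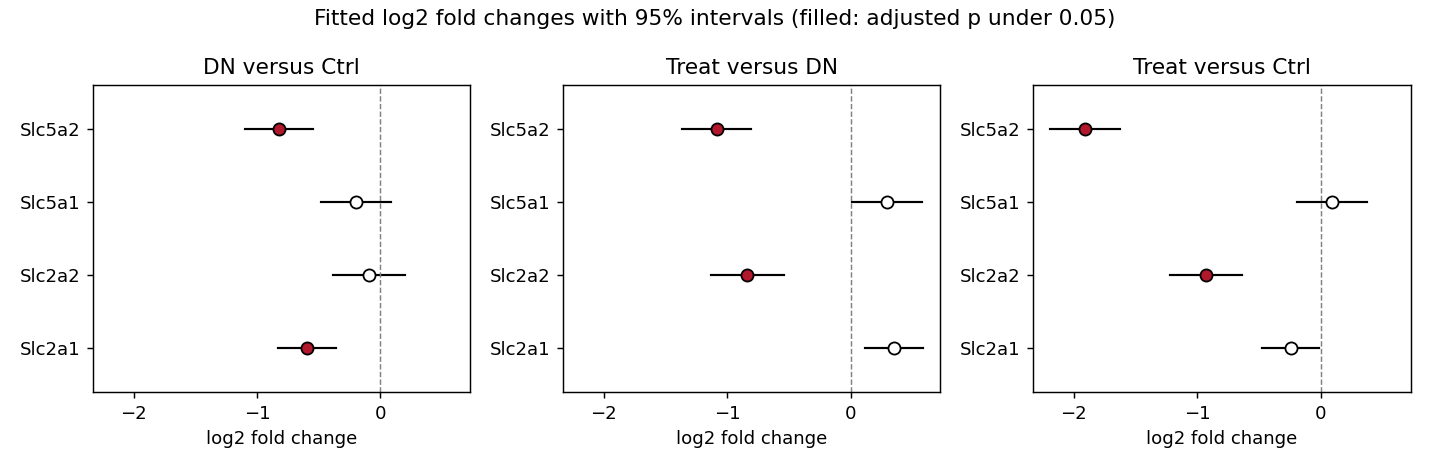
Fitted log2 fold changes of the 4 transporters (points, filled where the adjusted p is under 0.05) with 95% intervals, 1 panel per comparison. Slc5a2 is filled and left of 0 in all 3 panels, Slc2a2 in the 2 panels with Treat and Slc2a1 in DN versus Ctrl alone, and Slc5a1 is open in each.

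Slc2a2, the basolateral exit of the early proximal tubule, differed in the treated animals and not detectably in the model. Its control libraries had 221.4, 244.9 and 292.7 CPM, its DN libraries 174.0, 228.0 and 304.4 CPM, and its treated libraries 88.2, 138.3 and 169.7 CPM (lowest, median and highest). The DN range enclosed the whole control range. All 6 treated libraries were below all DN and all control libraries, with treated library 4 the closest to them and treated library 1 the farthest away.

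Means of Slc2a2 were 253.3 ± 25.4 CPM for Ctrl, 237.6 ± 44.3 for DN and 133.0 ± 27.4 for Treat (± SD, 6 libraries each). In DN against Ctrl the log2 fold change was -0.09 (95% interval -0.38 to 0.20, adjusted p = 0.641). In Treat against DN it fell by 0.84 on the log2 scale (SE 0.14, 95% interval -1.13 to -0.54, adjusted p = 0.00666), so that treated kidneys held 56.0% of the DN level. In Treat against Ctrl it fell by 0.93 (SE 0.14, adjusted p = 4.98e-05). The treatment fall was called under each of 28 other settings, with adjusted p from 3.29e-06 to 0.0322, and by size it ranked 388 among all genes tested and 15 among the 1579 of at least 100 CPM. Control library 4 had 243.9 CPM, close to the median control, and with it as the sole reference the fall from Ctrl to Treat was 0.87 (log2 fold change -0.87, adjusted p = 0.0345).

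Slc2a1, the widely expressed basal glucose transporter, had its lowest levels in DN. The control libraries had 29.7, 44.1 and 50.1 CPM, the DN libraries 24.1, 26.9 and 30.2 CPM, and the treated libraries 30.9, 35.1 and 39.1 CPM (lowest, median and highest). Control libraries 2, 3, 5 and 6 had 43.6 to 50.1 CPM, whereas library 1 had 32.8 and library 4 had 29.7 CPM. These 2 low controls lie on opposite sides of the division, with 46902 counts of ENSMUSG00000086503 in library 1 and 23 in library 4. Library 4 fell inside the DN range, and 4 of the 6 DN libraries were below every control.

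Means of Slc2a1 were 41.1 ± 8.05 CPM for Ctrl, 27.2 ± 2.49 for DN and 34.7 ± 2.92 for Treat (± SD, 6 libraries each). It fell by 0.60 on the log2 scale in DN against Ctrl (SE 0.11, 95% interval -0.83 to -0.36, adjusted p = 0.000580). With the division of the controls as a covariate the difference was -0.13 (SE 0.17) and was not called (adjusted p = 0.714), so the fall rested on the controls other than library 4. Whether the model or the division of the controls goes with this difference cannot be told apart.

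All 6 treated libraries were above all 6 DN libraries for Slc2a1, but the difference was not called. The log2 fold change was 0.35 (SE 0.11, 95% interval 0.12 to 0.59, unadjusted p = 0.00523, adjusted p = 0.120). Treated and DN libraries did not overlap, with treated higher, for 0.770% of all genes. On unscaled library totals the difference was 0.49 and called (adjusted p = 0.0219), a setting that shifts the median of all genes from -0.01 to 0.13. Against Ctrl, the treated libraries stood at a log2 fold change of -0.24 (95% interval -0.48 to -0.01, adjusted p = 0.0819), and the sign turned with control library 4 as the sole reference (0.23, adjusted p = 0.432).

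Counted over the 4 members, 2 were called lower and 0 higher in each of the 3 comparisons. In DN against Ctrl these were Slc5a2 and Slc2a1, where 15.3% of all genes were called lower, 16.9% higher and 32.2% in either direction. In Treat against DN they were Slc5a2 and Slc2a2, where 0.858% of all genes were called lower, 0.536% higher and 1.39% in either direction. In Treat against Ctrl they were again Slc5a2 and Slc2a2, where 21.9% of all genes were called lower, 23.0% higher and 44.9% in either direction. Calls against Ctrl were thus common among all genes in this fit, whereas calls between Treat and DN were rare. With the division of the controls in the fit, the genes called dropped to 451 higher and 535 lower in DN against Ctrl, where neither Slc5a2 nor Slc2a1 was called, and to 750 higher and 1112 lower in Treat against Ctrl, where Slc5a2 and Slc2a2 still were.

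The median log2 fold change of the 4 members was -0.40 in DN against Ctrl, -0.27 in Treat against DN and -0.59 in Treat against Ctrl, beside medians of 0.01, -0.01 and 0.02 over all genes tested. The middle 90% of all genes ran from -0.97 to 1.16, from -0.54 to 0.61 and from -1.15 to 1.35 in the same order. In Treat against DN the values of Slc5a2 and Slc2a2 were below this span, and those of Slc5a1 and Slc2a1 were inside it. The medians against Ctrl carry the division of the controls. The comparisons share libraries, so their values stand side by side and are not independent of each other.

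**Figure D3:**
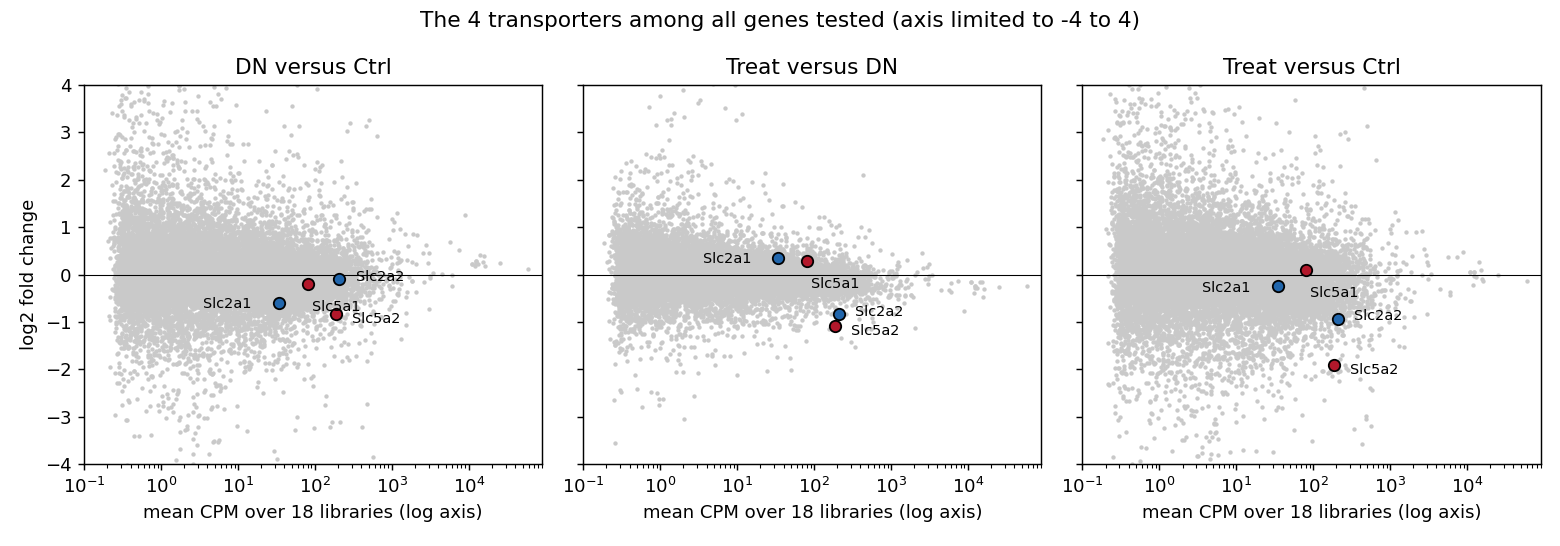
Log2 fold change against mean CPM (log axis) for the 19233 genes tested (grey) and the 4 transporters (red for the Slc5a genes, blue for the Slc2a genes), with 158, 10 and 197 genes beyond the vertical limits from left to right. In Treat versus DN, Slc5a2 and Slc2a2 lie at the lower edge of genes of their level, and Slc2a1 and Slc5a1 lie above 0.

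Ratios of 2 members within a library do not depend on library scaling, and they are given as a description without a test. The number of Slc5a1 counts per Slc5a2 count was 0.215 to 0.334 in Ctrl (median 0.266), 0.248 to 0.527 in DN (median 0.450) and 0.559 to 1.73 in Treat (median 1.14). Every treated library was thus above every DN and control library. Control library 4 had 0.257, within the range of the other controls. In DN, library 5 was inside the control range at 0.248, and the other 5 DN libraries, at 0.392 or more, were above all controls. The size of such a ratio also reflects transcript length and mapping, so it says nothing of which of the transporters had more molecules.

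On the basolateral side, Slc2a1 counts per Slc2a2 count were 0.120 to 0.202 in Ctrl (median 0.175), 0.0866 to 0.174 in DN (median 0.115) and 0.182 to 0.405 in Treat (median 0.271). The treated libraries were again above every DN library, but they overlapped with the controls, of which libraries 1 and 4 were low at 0.120 and 0.122. The 2 members of the early tubule did not keep a fixed ratio either. Slc2a2 counts per Slc5a2 count were 0.756 to 0.984 in Ctrl, 0.959 to 1.75 in DN and 0.887 to 2.27 in Treat. Control library 4 had 0.814, and control and DN libraries overlapped through DN library 5 alone, and Treat and DN overlapped widely.

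The 2 members assigned to the late tubule, Slc2a1 and Slc5a1, had a ratio of 0.386 to 0.660 in Ctrl, 0.301 to 0.516 in DN and 0.268 to 0.643 in Treat, which overlapped between all groups. Control library 4 had the lowest of the control ratios, 0.386. Single libraries shaped several of these ranges. Treated library 1 had the highest Slc5a2 (99.4 CPM) and the lowest Slc5a1 (55.5 CPM) and Slc2a2 (88.2 CPM) of its group. DN library 5 likewise had the highest Slc5a2 (233.8 CPM) and the lowest Slc5a1 (57.9 CPM) of the DN libraries. The TMM factors of these libraries were the extremes of the series, 1.15 for treated library 1 and 0.886 for DN library 5. Without these factors both libraries kept the same places in their groups. Treated library 1 then had 113.7 CPM of Slc5a2, 63.6 of Slc5a1 and 100.9 of Slc2a2. DN library 5 had 207.0 CPM of Slc5a2 and 51.3 of Slc5a1.

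**Figure D4:**
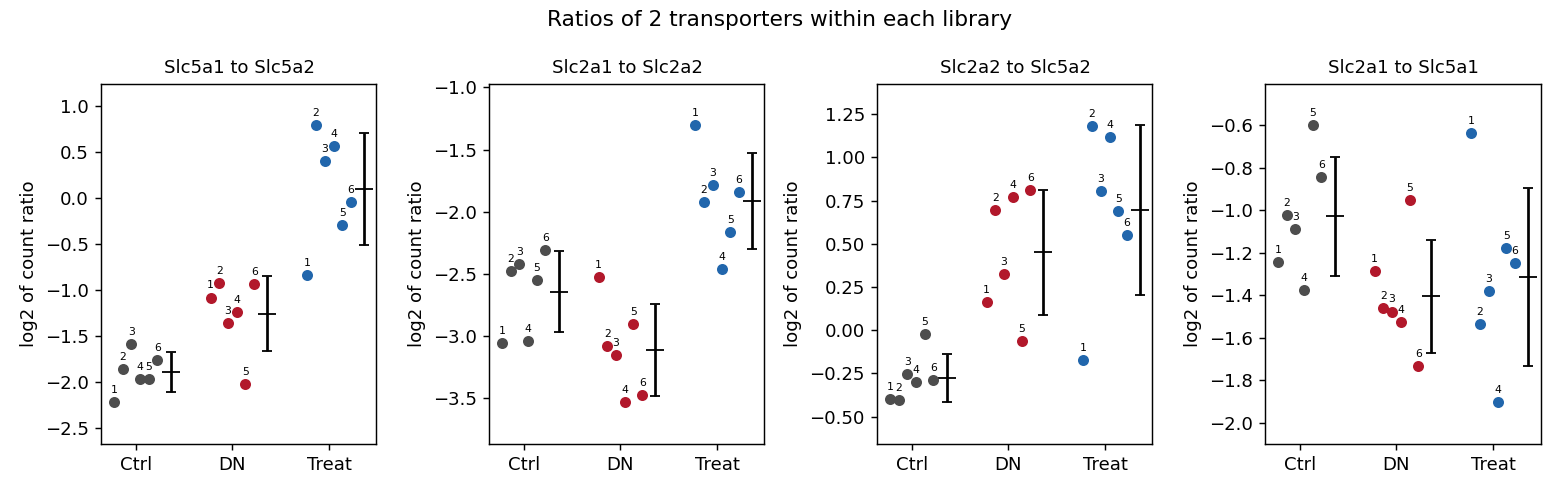
Log2 of the ratio of counts of 2 transporters within each library, with replicate numbers and bars for the mean ± SD of each group of 6. For Slc5a1 to Slc5a2 the 6 treated libraries lie above the other 12, and for Slc2a1 to Slc2a2 they lie above all DN libraries.

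Likeness of pattern was measured as Pearson's r of log2 CPM over the 18 libraries, which share their groups and scaling, among genes with a mean of at least 5 CPM. Against Slc5a2, Slc2a2 had an r of 0.79 and ranked 357 among 11811 other genes, Slc2a1 had 0.23 (rank 4902) and Slc5a1 had -0.27 (rank 7829). Many other genes therefore followed Slc5a2 more closely than its fellow transporters did: 36 had an r over 0.9, the closest with 0.97. Slc2a2 had 15 such genes, Slc2a1 had 1 and Slc5a1 none (its closest had 0.87). After the group means were removed, the r of Slc5a2 with Slc2a2 was -0.07 and with Slc5a1 -0.61. The likeness of Slc5a2 and Slc2a2 thus described the groups and was not seen among animals of a group. The r of -0.61 includes treated library 1 and DN library 5, each the highest in Slc5a2 and the lowest in Slc5a1 of its group. Its value without them was not computed.

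**Figure D5:**
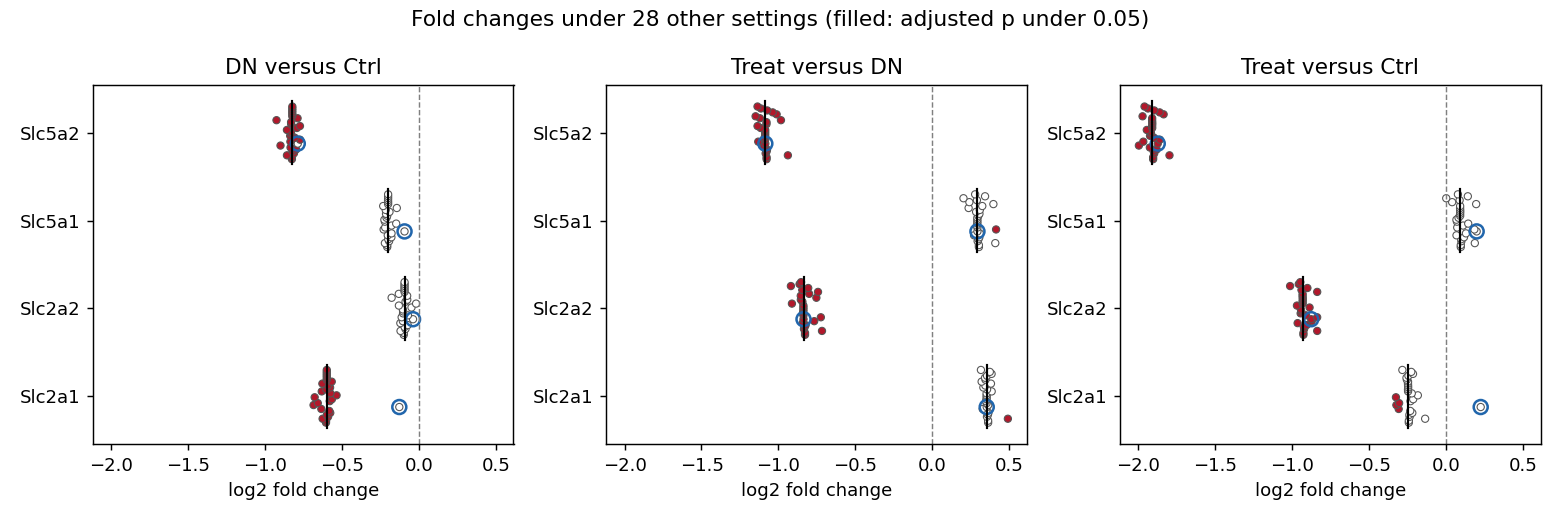
Log2 fold changes of the 4 transporters under 28 other settings (points, filled where the adjusted p is under 0.05), with a vertical bar at the value reported above and a blue ring around the fit that leaves control library 4 as the sole reference. The ringed point is far from the others for Slc2a1 in both comparisons with Ctrl, and the points of Slc5a2 and Slc2a2 in Treat versus DN are filled throughout.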

How the data were processed

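The authors deposited raw counts per gene, 1 column per library, without normalization. The sources used here name no aligner, counter, annotation release or strand setting. The submitters' processing notes list the mouse builds GRCm38 and mm10, although the labels say rat. If the animals were rats, reads could have been lost unevenly between genes. Near-identical copies and antisense reads could not be checked.

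Columns were assigned by library name and groups by sample title. The 4 symbols come with the selection of the members. The 18 further gene lists (119 symbols: other SLC2 and SLC5 genes, regulators, tubule segment, cell type and sex-linked markers) could not be used, since 0 symbols could be matched to an identifier and 0 of the 55335 identifiers were in the rat gene table. Cell composition and the kidney label were therefore not checked against markers. The rule for naming genes (largest changes per list, the 3 closest in pattern per member) needed names, so counts and ranks are given. The members and lists were chosen with earlier results of these data known.

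Counts were fitted in R 4.3.3 with edgeR 4.0.16 (filterByExpr, TMM, 1 coefficient per group, no covariate, glmQLFit and glmQLFTest). SEs were derived from the F statistics. Log2 CPM used a prior count of 2. The common biological coefficient of variation was 0.273, and the procedure was tested on simulated data. Between simulated Treat and DN libraries it called 63 of 100 genes changed 2-fold and 88 of 100 changed 4-fold. A true difference can therefore go uncalled. The changed genes were drawn at random from those that passed the filter, whatever their level, so the rate for the 4 members was not measured. No 2 libraries of the same group agreed within sampling noise (45 pairs, lowest chi-square per degree of freedom 11.8), and p-values measure the spread between them. Alternatives were DESeq2 1.42.0, RLE factors, library totals, other filters, the 12 libraries compared, a replicate block, limma 3.58.1 voom with quality weights, the division of the controls as a covariate, and libraries left out. Promoters are from RefSeq (all 4 symbols matched).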

Additional observations from a re-analysis of the deposited data

How the results depend on the processing

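Of the 12 fold changes of the members, 7 kept their direction and their side of the threshold in all 28 settings. When the controls' division entered the fit, with library 4 as the reference, the DN against Ctrl calls were lost for Slc5a2 (-0.79) and Slc2a1 (-0.13), Slc2a1 turned to 0.23 in Treat against Ctrl, and the genes called fell to 451 higher and 535 lower in DN against Ctrl (3254 and 2948 otherwise) and to 750 higher and 1112 lower in Treat against Ctrl (4415 and 4214 otherwise). Slc2a1 became called in Treat against DN with library totals (0.49), and in Treat against Ctrl with limma voom (-0.31), without control library 4 and treated library 1 together (-0.32), and without control library 1 (-0.30, adjusted p = 0.0331) or 4 (-0.32, adjusted p = 0.0123). Slc5a1 became called in Treat against DN without control library 4 and treated library 1 (0.41). The cause was not tested.

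With single libraries left out, Slc2a1 in Treat against Ctrl ranged from -0.32 to -0.18. The genes called between Treat and DN, 103 higher and 165 lower, ranged from 27 to 140 higher and from 70 to 306 lower, at least 1 of these counts moving by over 1.5 times without control library 2 or 6, DN library 1, 2, 4 or 6, or treated library 1, 3 or 6. They were 379 and 420 with DESeq2, 272 and 465 with limma voom, 35 and 84 without a filter, 49 and 67 with the 12 libraries compared, 231 and 362 without control library 4 and treated library 1, and 654 higher with library totals. Slc5a2 and Slc2a2 were called lower in Treat against DN in each of these fits.

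The replicate numbers did not pair the libraries: same-numbered libraries correlated at -0.19 to 0.19 in their deviations from the group means, and 2 of 18 libraries correlated best with their own number. With the replicate block 36 genes were higher and 81 lower in Treat against DN, and no call of a member changed (Slc5a2 -1.09, Slc2a2 -0.84).

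Depth limits none of the members, whose counting error was at most 3.56% on average, against the spread between animals.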
